A study of Homo sapiens with 6 samples.

Results

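The 10 genes followed here act as feedback points between FOXO factors and the insulin and mTOR pathways and were measured in 6 libraries. They are the receptors INSR and IGF1R, the adaptors IRS1 and IRS2, the sestrins SESN1 and SESN3, the pseudokinases TRIB1 and TRIB2, the mTORC2 subunit RICTOR and the translation repressor gene EIF4EBP1. Members were taken by name from the deposited expression table, and the list was chosen with earlier results of these data known. Each was found in 1 row, so the 10 members are 10 of 47102 names. Of the libraries, 3 were wild-type controls (Control1 to Control3) and 3 came from cells labelled FOXO3A knock-out (KO1 to KO3), all labelled as the acute myeloid leukemia line U-937, grown in RPMI1640 with serum. The knockout was made with guide RNAs whose sequence and clonal origin the labels do not state, nor do they state what the control cells received. FOXO3A is an older name of FOXO3.

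Insulin and IGF receptors phosphorylate IRS adaptors, which recruit PI3K and activate AKT. AKT in turn phosphorylates FOXO factors and keeps them out of the nucleus, and it favours mTORC1, the kinase complex that drives translation. When the pathway is quiet, nuclear FOXO is known to raise transcription of INSR, IRS2, SESN1, SESN3, RICTOR and, in Drosophila, the EIF4EBP1 homologue Thor, so that sensitivity to insulin rises while mTORC1 is held back. TRIB2, a Tribbles pseudokinase, was described in melanoma as a repressor of FOXO3 activity. TRIB1 and TRIB2 direct C/EBPα to degradation through the ubiquitin ligase COP1. In T cells FOXO factors are better known for genes of quiescence and homing than for insulin signalling.

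The start regions of the members were examined for letters that forkhead factors recognise, because the study perturbs such a factor. The promoter windows shown are that of TRIB2, the member that passed the test, that of IRS2, a textbook insulin-repressed gene, and that of SESN3, a sestrin gene whose window holds the shorter core on both strands. Each runs from 250 bases before to 50 bases after the annotated start, 5′ to 3′ on the gene's strand (RefSeq, GRCh38.p14), and capitals mark matches to the motifs searched. The windows are chr2:12716686-12716985 on the plus strand for TRIB2, chr13:109786534-109786833 on the minus strand for IRS2 and chr11:95232426-95232725 on the minus strand for SESN3.
TRIB2: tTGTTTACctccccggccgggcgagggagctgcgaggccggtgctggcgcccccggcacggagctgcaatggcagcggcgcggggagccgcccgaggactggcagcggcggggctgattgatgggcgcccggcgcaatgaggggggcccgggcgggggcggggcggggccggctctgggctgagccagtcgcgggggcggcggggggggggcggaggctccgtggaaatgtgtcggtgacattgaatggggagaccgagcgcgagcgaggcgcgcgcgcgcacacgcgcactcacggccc
IRS2: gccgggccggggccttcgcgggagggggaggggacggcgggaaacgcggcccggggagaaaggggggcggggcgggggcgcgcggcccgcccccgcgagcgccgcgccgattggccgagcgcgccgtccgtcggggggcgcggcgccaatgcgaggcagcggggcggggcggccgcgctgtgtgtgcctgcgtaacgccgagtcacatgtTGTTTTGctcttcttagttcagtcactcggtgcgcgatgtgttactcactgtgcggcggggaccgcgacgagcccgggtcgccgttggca
SESN3: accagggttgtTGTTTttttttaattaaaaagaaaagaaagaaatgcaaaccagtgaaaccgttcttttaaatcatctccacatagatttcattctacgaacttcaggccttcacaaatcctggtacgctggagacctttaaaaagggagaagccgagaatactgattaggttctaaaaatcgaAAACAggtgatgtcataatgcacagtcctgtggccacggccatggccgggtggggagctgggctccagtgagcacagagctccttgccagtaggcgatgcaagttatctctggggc

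The first motif was the FOXO consensus, TGTTTAC. The second was the core of the insulin response element, with the letters TGTTTTG. The shortest was the forkhead core, which is TGTTT and is contained in both of the others. Each was sought on both strands. RefSeq windows were matched for 8 members, with 10 windows in all since SESN1 has several starts. TRIB1 and EIF4EBP1 had no matched window, so their start regions were not searched. The FOXO consensus was in 1 window, that of TRIB2, where it begins 249 bases before the start, and it was in 3.42% of all 35116 promoter windows. The IGF1R window ends in TGTTTA, so a consensus running past its last base could not be seen. IRS2 alone held the insulin response element core, 40 bases before the start, against 4.92% of all windows. The forkhead core was in 7 of 10 member windows, those of 6 genes (SESN1, SESN3, IRS1, IRS2, IGF1R and TRIB2), and in 44.4% of all windows. INSR and RICTOR held none of these letters in their windows. The INSR window (7294365 to 7294664) lies wholly upstream of the gene as placed below, which starts at 7294034 on the minus strand. Windows and gene coordinates came from different annotations. These matches describe the sequence and were not tested for binding.

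Expression was given as FPKM, fragments per kilobase of transcript scaled to library depth. The measure corrects for length but its definition holds no term for GC content, so levels compared between genes are approximate. Steps between low values were read as single aligned bases and gave depths of 4.26 to 5.71 gigabases per library. The second control library stood apart on the first principal component (44.3% of the variance, at −31.3, against −13.6 and −3.71 for the other controls and 10.8 to 19.4 for the knockouts). Markers of T cells were abundant and those of monocytes scarce in every library, which goes against the label U-937, a line used as a model of monocytes. All 12 T cell markers in rows of their own had a mean of at least 1 FPKM, led by CD3E at 182 to 224 FPKM. Among 22 markers of monocytes and macrophages, 20 had means under 1 FPKM, and the others were CEBPE and CEBPA. The summed level of the T cell markers was 632 to 711 FPKM in control and 712 to 766 in knockout libraries, and that of 7 B cell markers, most of it CD79A, was 41.1 to 48.8 and 29.8 to 36.8 FPKM. The part of these shifts in the results was not tested. FOXO3 mRNA did not mark the knockout libraries (4.04 ± 0.355 FPKM among controls and 3.84 ± 0.346 among knockouts, SD, n = 3, limma adjusted p = 0.732), and directions are those of the libraries labelled knockout. Nothing in the labels says that libraries of a group were separate cultures, so the spread that p-values measure here may be technical.

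Of the 10 feedback genes 1 rose in the knockout libraries, TRIB2, and 0 fell. Differences were tested with limma on log2(FPKM + 1) over the 11162 names whose mean reached 1 FPKM, and on this scale fold changes of low genes are understated. In all 6 members passed that filter (SESN1, SESN3, INSR, IRS1, TRIB2 and EIF4EBP1), and IRS2, IGF1R, RICTOR and TRIB1 were below it. Over all names tested, 2.68% were past an adjusted p of 0.05, and 1.38% were past it and higher in the knockout libraries. The median log2 fold change of the 6 tested members was −0.12, against 0.02 over all names tested. The libraries of the groups did not overlap for 2 of the tested members, TRIB2 and EIF4EBP1, where 32.3% of all tested names did not overlap (17.7% higher and 14.7% lower in the knockout libraries). At an unadjusted p below 0.05, 2 of the 6 tested members were called, as were 25.7% of all names. With no filter on low values 0 of the 10 members were called, beside 0.763% of names. With a mean of at least 5 FPKM, upper-quartile scaling, quantile normalization or the length and GC correction 2 members were called, TRIB2 and EIF4EBP1, beside 5.13%, 3.84%, 4.86% and 6.76% of names. In bulk RNA, fewer cells of a type and less RNA per cell cannot be told apart.

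**Figure D1:**
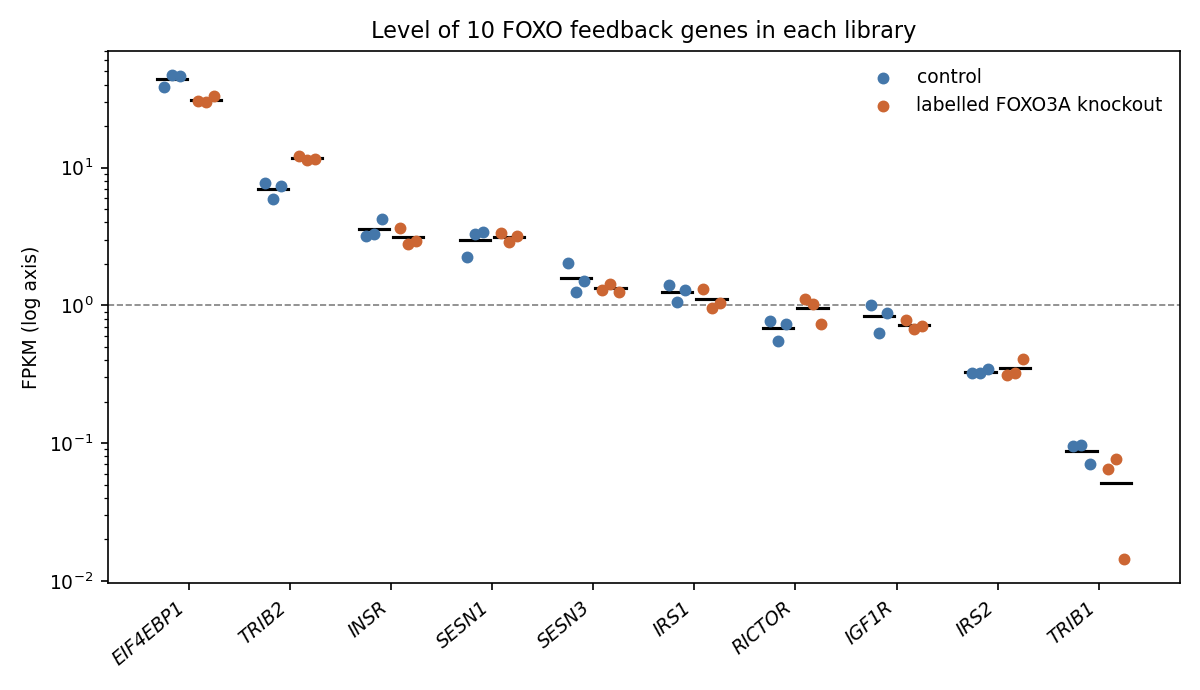
FPKM of each member in each of the 6 libraries on a log axis, ordered by mean, with 1 point per library, a black line at each group's mean and a dashed line at 1 FPKM, the filter of the test. TRIB2 and EIF4EBP1 are the members whose groups do not overlap, TRIB2 at 5.93 to 7.69 FPKM in control and 11.3 to 12.1 in knockout libraries.

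EIF4EBP1 was the highest and TRIB2 the next in each of the 6 libraries, and IRS2 was ninth and TRIB1 lowest in each. INSR and SESN1 exchanged the next places between libraries and did not differ beyond their spread (3.33 and 3.07 FPKM over all libraries). SESN3 and IRS1 followed (1.46 and 1.18 FPKM), then RICTOR and IGF1R (0.820 and 0.782 FPKM), which also lay within each other's spread.

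The receptors did not differ past the threshold. INSR, the insulin receptor tyrosine kinase, on chromosome 19 from 7112255 to 7294034 on the minus strand (GRCh38), was at 3.18, 3.27 and 4.23 FPKM among controls and at 3.61, 2.79 and 2.93 FPKM among knockouts. The groups overlapped, and the third control was the highest of all libraries. Its log2 fold change was −0.15 (SE 0.13, 95% interval −0.45 to 0.16, limma adjusted p = 0.500), and it was −0.04 without the third control and −0.23 without the first knockout. IGF1R, the receptor for IGF1 and IGF2, on chromosome 15 from 98648539 to 98964530, plus strand, was at 1.00, 0.628 and 0.886 FPKM among controls and 0.786, 0.678 and 0.709 FPKM among knockouts. All 3 knockout values lay inside the control range. With no filter on low values its log2 fold change was −0.09 (95% interval −0.34 to 0.16, limma adjusted p = 0.685). Within a library INSR was 3.17 to 5.20 times as high as IGF1R, with overlapping groups (exact two-sided permutation p = 0.9, where 0.1 is the smallest that 3 against 3 libraries allow). This was 1 of 8 ratios between related genes that were compared, so none could pass an adjustment over them.

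IRS1 and IRS2, the docking proteins that couple these receptors to PI3K, did not differ past the threshold either. IRS1, on chromosome 2 from 226731317 to 226799759 on the minus strand, was at 1.40, 1.06 and 1.30 FPKM among controls and 1.31, 0.961 and 1.04 FPKM among knockouts. The groups overlapped (log2 fold change −0.10, SE 0.11, 95% interval −0.36 to 0.15, limma adjusted p = 0.586), and the log2 fold change was −0.05 without the first control or the second knockout and −0.17 without the first knockout. IRS2, on chromosome 13 from 109752698 to 109786568 on the minus strand, is the gene of the pair that FOXO1 is known to activate in liver. It was at 0.322, 0.324 and 0.343 FPKM among controls and 0.312, 0.324 and 0.411 FPKM among knockouts. The third knockout was above every other library, and the groups overlapped. With no filter the log2 fold change was 0.02 (95% interval −0.09 to 0.13, limma adjusted p = 0.842). Its row holds 1 transcript of 8138 bases, so these low values stand for an estimated 38.4 to 56.8 read pairs per library. IRS1 was 2.53 to 4.36 times as high as IRS2 within a library (exact two-sided permutation p = 0.4).

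Sestrins, stress-induced proteins that bind GATOR2 and restrain mTORC1 when leucine is scarce, did not pass the test. SESN1, a target of p53 as well as of FOXO, was at 2.26, 3.29 and 3.43 FPKM among controls and 3.33, 2.90 and 3.18 FPKM among knockouts. The first control was the lowest, and the other controls and the knockouts lay together. Its log2 fold change was 0.06 (SE 0.14, 95% interval −0.27 to 0.39, limma adjusted p = 0.801), and the sign was negative without the first control (−0.08) and once a trend of the differences on length and GC content had been taken out (−0.20). SESN1 is placed on chromosome 6 between 108986437 and 109094819 on the minus strand, 302 kb from FOXO3 itself (108559835 to 108684774, plus strand), so the targeted gene and this member share a neighbourhood. SESN3, on chromosome 11 from 95165513 to 95232541 on the minus strand, was at 2.03, 1.24 and 1.49 FPKM among controls and 1.30, 1.42 and 1.25 FPKM among knockouts. The first control was the highest and the groups overlapped (log2 fold change −0.14, SE 0.13, 95% interval −0.45 to 0.16, limma adjusted p = 0.509), and the log2 fold change was −0.02 without the first control and −0.24 without the second. SESN2, the family member induced by ATF4 and no member of the feedback set, was the highest sestrin in all libraries, at 5.54, 6.07 and 5.83 FPKM among controls and 4.96, 4.11 and 5.01 FPKM among knockouts. All its knockout values were below all its control values, and it did not pass the test (log2 fold change −0.26, limma adjusted p = 0.148).

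**Figure D2:**
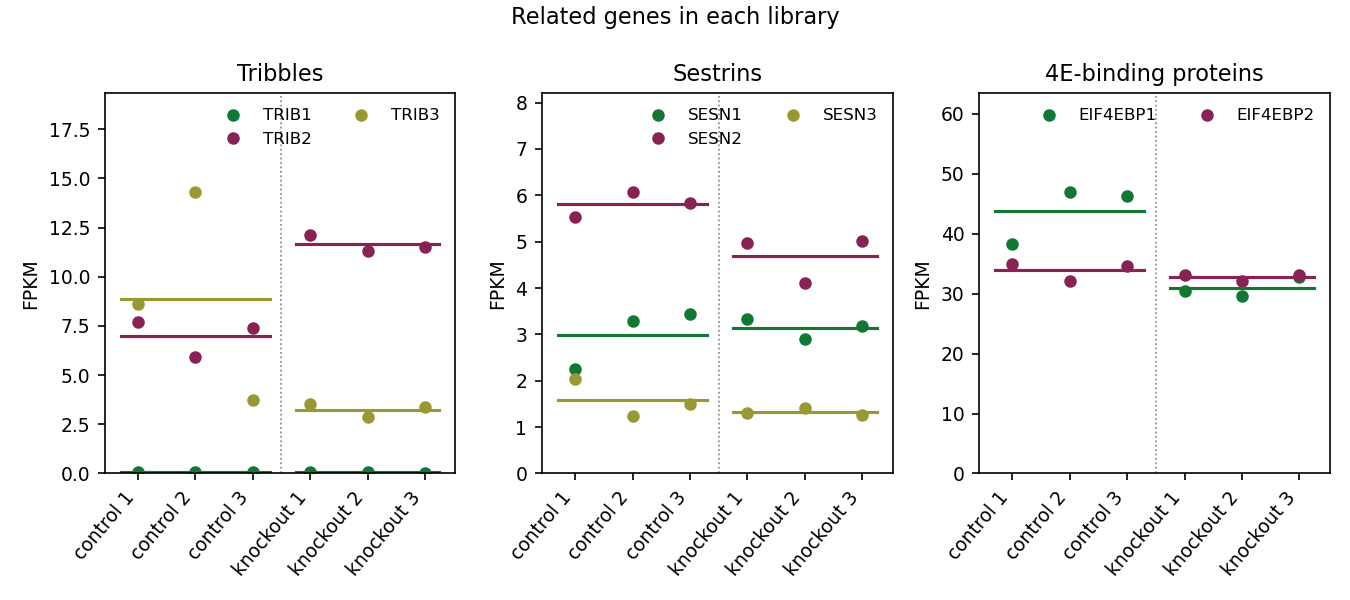
FPKM of the Tribbles, sestrin and 4E-binding protein genes in each library, with 1 point per library and a line at each group's mean. TRIB2 lies higher in each knockout than in each control library, and the means of EIF4EBP1 and EIF4EBP2, neither of which passed the test, were 43.8 and 33.9 FPKM among controls and 31.0 and 32.8 FPKM among knockouts.

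In log2(FPKM + 1), TRIB2 differed more between the groups than any other member. Placed on chromosome 2 from 12716889 to 12742734, plus strand, it was at 7.69, 5.93 and 7.39 FPKM among controls and at 12.1, 11.3 and 11.5 FPKM among knockouts. The knockout libraries lay close together and all above the highest control, and the second control was the lowest. The means were 7.00 ± 0.944 and 11.7 ± 0.412 FPKM (SD, n = 3), a ratio of 1.66. The log2 fold change was 0.67 (SE 0.10, 95% interval 0.42 to 0.92, limma adjusted p = 0.0301), larger in size than that of 95.8% of the names tested. The call was kept without the first control (adjusted p = 0.0312, beside 929 of 11162 names called) or the second (0.0411, beside 122 names). It was lost without the third control (0.0824) and without the first, the second or the third knockout library (0.119, 0.123 and 0.0929), and with no filter on low values (0.0595), while the log2 fold change stayed between 0.57 and 0.73 with any 1 library left out. Corrected for length and GC content it was 0.69 (adjusted p = 0.0103).

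TRIB1, on chromosome 8 from 125430321 to 125438405, plus strand, encodes a Tribbles protein known to drive C/EBPα degradation in myeloid leukaemia. Its reads were few, and it was at 0.0947, 0.0965 and 0.0704 FPKM among controls and 0.0647, 0.0761 and 0.0144 FPKM among knockouts. Counted on its longest transcript these values stand for an estimated 0.887 to 7.09 read pairs. With no filter the log2 fold change of TRIB1 was −0.05 (95% interval −0.12 to 0.02, limma adjusted p = 0.469), and the groups overlapped. TRIB3, a target of ATF4 that binds AKT, was at 8.63, 14.3 and 3.74 FPKM among controls and 3.51, 2.85 and 3.36 FPKM among knockouts. The third control lay close to the knockouts, far below the other controls, and TRIB3 did not pass the test (log2 fold change −1.07, 95% interval −2.03 to −0.11, limma adjusted p = 0.164). The TRIB3 log2 fold change was −0.68 without the second control and −1.52 without the third, and neither passed (adjusted p = 0.274 and 0.0602). Within a library TRIB2 was 0.891, 0.414 and 1.97 times as high as TRIB3 in control and 3.45, 3.97 and 3.43 times as high in knockout libraries. All knockout values were above all controls for TRIB2 and below all controls for TRIB3. The groups of this ratio therefore had to be apart, and its exact two-sided permutation p of 0.1 adds nothing to the single genes. Partners of the family did not differ past the threshold, among them COP1 at 6.60 ± 0.601 and 7.23 ± 0.631 FPKM. CEBPA, the gene of C/EBPα, was at 2.39 ± 0.348 and 2.58 ± 0.208 FPKM, and CEBPB at 4.21 ± 0.585 and 3.60 ± 0.358 FPKM (SD, n = 3).

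RICTOR, which defines mTORC2, the complex that phosphorylates AKT at its hydrophobic motif, is placed on chromosome 5 from 38937919 to 39074408 on the minus strand. It was at 0.772, 0.551 and 0.733 FPKM among controls and 1.12, 1.02 and 0.728 FPKM among knockouts. The first and the second knockout were above all controls, and the third lay among the controls. With no filter its log2 fold change was 0.21 (95% interval −0.06 to 0.49, limma adjusted p = 0.418). RICTOR transcripts are rich in A and T, with a GC content of 38.2%, at the 3.10th percentile of the names tested, and the log2 fold change over all names fell with GC content (Spearman rho −0.389 across 11113 names, which are not independent replicates). The part of this trend in the RICTOR values was not tested.

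EIF4EBP1 encodes 4E-BP1, which holds the cap-binding factor eIF4E until mTORC1 phosphorylates it. Placed on chromosome 8 from 38030341 to 38060365 of the plus strand, it was the most abundant member, at 38.3, 46.9 and 46.2 FPKM among controls and 30.4, 29.6 and 32.8 FPKM among knockouts. All knockout libraries were below all controls, with the first control nearest to them. The means were 43.8 ± 4.80 and 31.0 ± 1.66 FPKM (SD, n = 3), a difference of −29.3%. The log2 fold change was −0.48 (SE 0.10, 95% interval −0.71 to −0.25), and it missed the threshold (limma adjusted p = 0.0540). It passed with only names at a mean of 5 FPKM or more (adjusted p = 0.0468), with upper-quartile scaling (0.0473) and with quantile normalization (0.0388). It also passed without the first control library (0.0267), where 929 of 11162 names were called, against 299 with all libraries. EIF4EBP1 missed the threshold when any other single library was left out (0.104 to 0.189).

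The GC content of EIF4EBP1 transcripts was 62.0%, above 92.0% of the names tested, and their mean length was 858 bases. Correction for length and GC content reduced the log2 fold change to −0.37 (adjusted p = 0.0206), and to −0.37 with an adjusted p of 0.0555 when the second control was also left out. EIF4EBP2, another 4E-binding protein gene, was at 33.9 ± 1.52 FPKM among controls and 32.8 ± 0.540 among knockouts (log2 fold change −0.05, 95% interval −0.19 to 0.10, limma adjusted p = 0.648). The ratio of EIF4EBP1 to EIF4EBP2 was 1.10, 1.46 and 1.33 in control and 0.921, 0.923 and 0.993 in knockout libraries. In FPKM, each control had more EIF4EBP1 than EIF4EBP2 and each knockout slightly less (exact two-sided permutation p = 0.1).

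**Figure D3:**
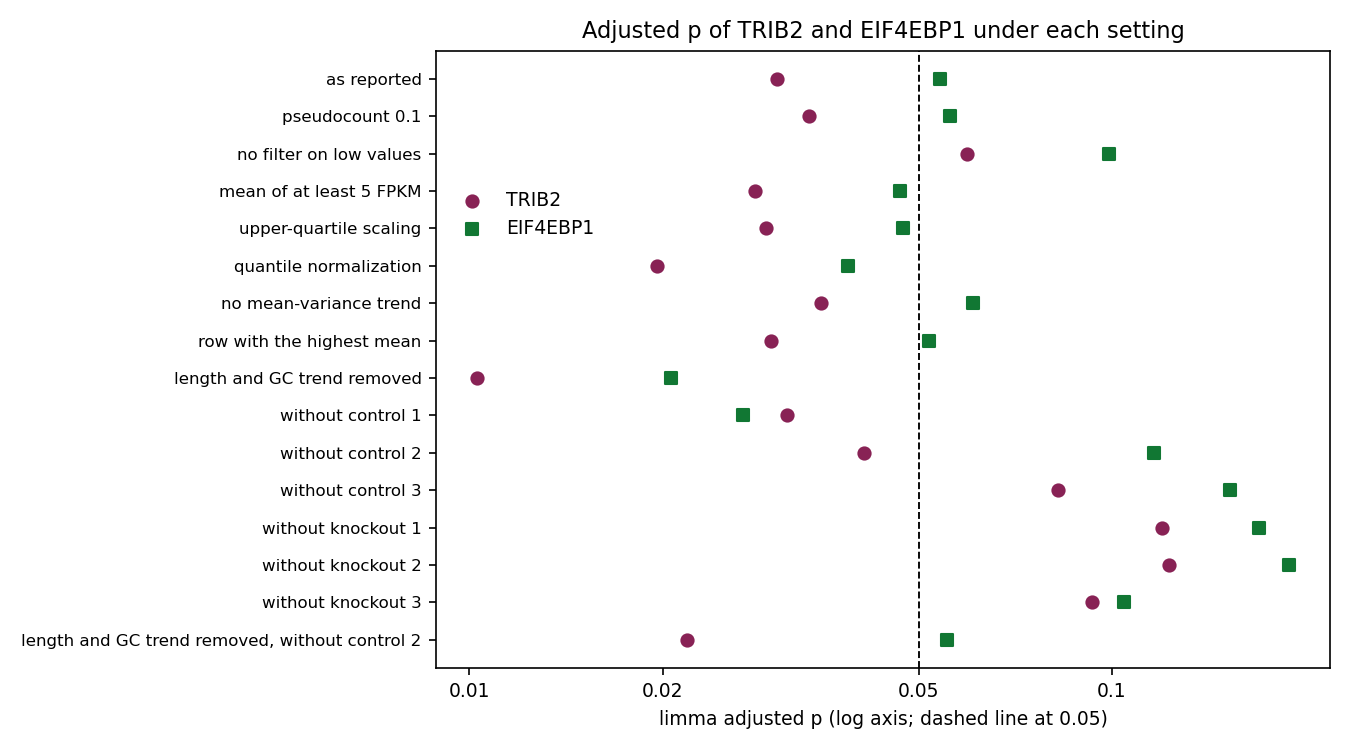
Adjusted p of limma for TRIB2 and EIF4EBP1 under 16 settings (the replicate block is not drawn), on a log axis with a dashed line at 0.05. TRIB2 lies left of the line as reported (0.0301) and right of it when any 1 knockout library is left out, while EIF4EBP1 lies just right of it as reported (0.0540).

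The remaining genes of the pathways were counted by list. Of 88 further genes tested, 85 did not pass the test, 2 fell and 1 rose, with 43 higher and 45 lower in the knockout libraries and a median log2 fold change of −0.01. All the calls fell in the list of receptor-proximal adaptors and negative regulators, where 3 of 17 tested genes passed (median log2 fold change 0.14), beside 2.68% of all names. PTPRF, a receptor tyrosine phosphatase known to dephosphorylate the insulin receptor, fell by 49.8% from a control mean of 4.19 ± 0.300 FPKM (limma log2 fold change −0.74 with SE 0.10, adjusted p = 0.0211). Its libraries stood at 3.84, 4.39 and 4.33 FPKM in control and 2.35, 2.13 and 1.83 FPKM in knockout. GAB2, a scaffold that recruits PI3K and the phosphatase SHP2, had means of 4.45 ± 0.372 among controls and 2.85 ± 0.224 FPKM among knockouts, and fell (limma log2 fold change −0.50, adjusted p = 0.0485). DOK2, an adaptor that dampens tyrosine kinase signals in haematopoietic cells, had means of 10.9 ± 0.382 among controls and 16.3 ± 1.01 FPKM among knockouts, and rose (limma log2 fold change 0.55, adjusted p = 0.0214). These 3 genes had groups that did not overlap. PTPRF and DOK2 kept the call without the first control (0.0285 and 0.0319), where 929 of 11162 names were called. Both lost the call when any other single library was left out (0.0573 to 0.0966 and 0.0535 to 0.0931). GAB2 lost the call when any 1 of the 6 libraries was left out (0.0533 to 0.177) and with no filter on low values (0.0826).

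**Figure D4:**
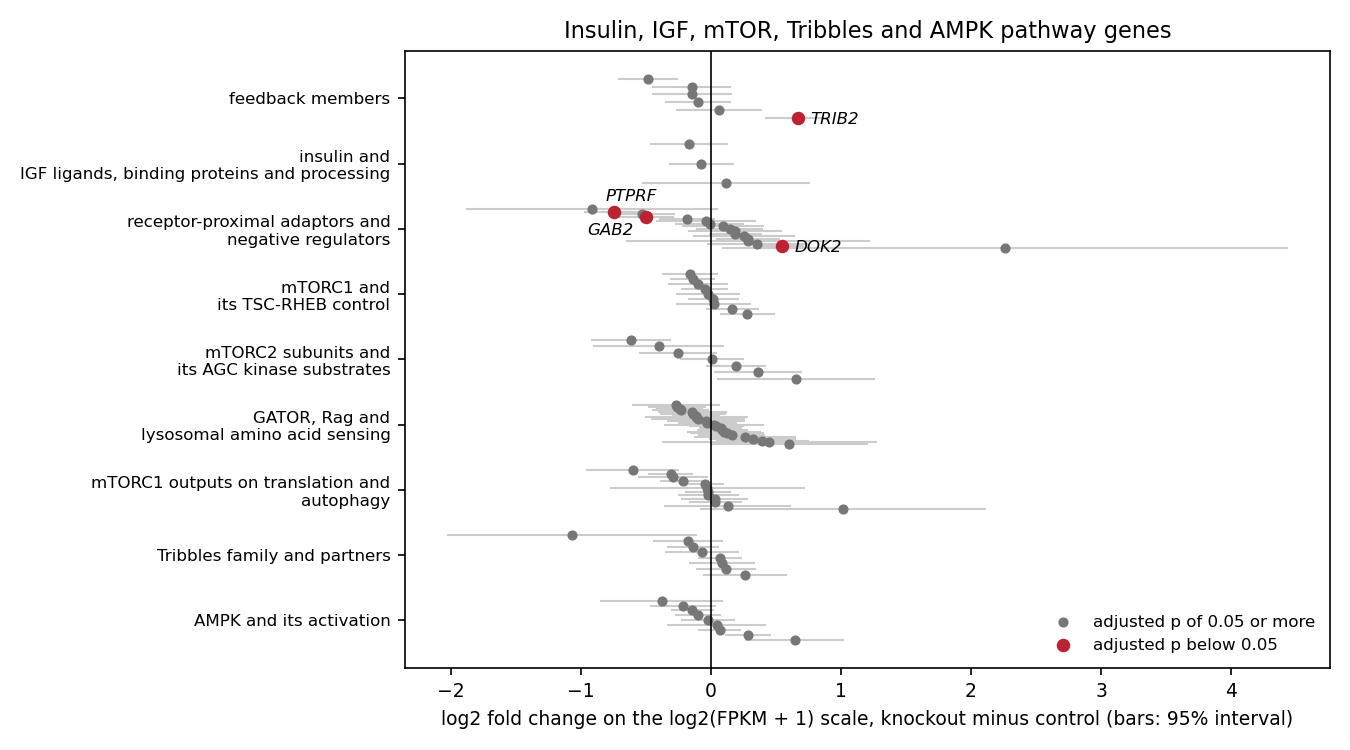
Difference in log2(FPKM + 1), knockout minus control, with its 95% interval, for each tested gene of the 9 pathway lists, sorted within each list. Red points are past an adjusted p of 0.05, TRIB2 at 0.67, PTPRF at −0.74, GAB2 at −0.50 and DOK2 at 0.55.

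The ligands were scarce. INS, IGF1 and IGFBP1, the last a classical FOXO1 target of liver, were listed at the floor of 0.0001 FPKM in every library. Of 12 genes for ligands, binding proteins and processing with a row of their own 3 were tested, and 0 passed. IGFBP2, an IGF-binding protein found in leukaemias, was the most abundant, at 21.5 ± 2.42 FPKM among controls and 19.0 ± 2.54 among knockouts (limma adjusted p = 0.430). IGFBP6 was at 2.78 ± 0.432 and 2.58 ± 0.131 FPKM and IDE, the insulin-degrading protease, at 6.50 ± 1.28 and 7.35 ± 2.62 FPKM (adjusted p = 0.684 and 0.820).

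Genes of mTORC1 did not pass the test. Of 9 tested genes for the complex and its TSC and RHEB control, 0 passed (median log2 fold change −0.02). MTOR, the kinase itself, had a log2 fold change of −0.02 (95% interval −0.27 to 0.22), and MLST8, a subunit of both complexes, of 0.02 (−0.17 to 0.21). RHEB, the GTPase that switches mTORC1 on, was at 20.5 ± 1.55 FPKM among controls and 25.2 ± 2.09 among knockouts, without overlap (limma adjusted p = 0.118). RPTOR, the defining subunit of mTORC1, was at 5.98 ± 0.191 and 5.34 ± 0.229 FPKM, and TTI1, a co-chaperone of the kinase, at 16.3 ± 1.73 and 18.4 ± 0.00535 FPKM (adjusted p = 0.272 for each).

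Among 7 tested mTORC2 subunits and AGC kinases 0 passed (median log2 fold change 0.01). PRKCA, a protein kinase C that needs mTORC2 for its stability, was at 55.9, 42.5 and 57.4 FPKM among controls and 36.2, 31.7 and 32.1 FPKM among knockouts. Its groups did not overlap and it missed the threshold narrowly (log2 fold change −0.62, limma adjusted p = 0.0565). PRKCA passed without the second control (adjusted p = 0.0297), with upper-quartile scaling (0.0432) and with the length and GC correction (0.0140). AKT1 was at 7.46, 6.99 and 8.47 FPKM among controls and 7.95, 16.3 and 15.1 FPKM among knockouts. The first knockout lay among the controls (adjusted p = 0.174), and AKT1 passed without it (log2 fold change 0.95, adjusted p = 0.0357). SGK3, a lipid-binding relative of AKT, was at 1.20 ± 0.371 and 1.80 ± 0.232 FPKM (adjusted p = 0.175).

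Amino acid sensing genes, with 23 tested, had 0 past the threshold and 12 higher against 11 lower (median log2 fold change 0.02). The smallest p-values were those of WDR24, a subunit of GATOR2, at 3.37 ± 0.151 and 2.70 ± 0.119 FPKM (log2 fold change −0.24), of SESN2, given above, and of BMT2, the methionine sensor also called SAMTOR, at 2.13 ± 0.614 and 3.07 ± 0.218 FPKM (adjusted p = 0.163). BMT2 passed without the first control (adjusted p = 0.0376), where 929 of 11162 names were called. Its log2 fold change of 0.40 was 0.09 with the length and GC correction. Outputs of mTORC1 had 12 tested genes and 0 past the threshold, with 8 lower (median log2 fold change −0.02). TFE3, a factor of lysosomal genes that mTORC1 keeps in the cytoplasm, was at 9.70 ± 0.489 and 7.63 ± 0.255 FPKM (adjusted p = 0.0666), and it passed with upper-quartile scaling (0.0480), quantile normalization (0.0463) and the length and GC correction (0.0373). ATG13, part of the autophagy-initiating ULK complex, was at 21.8 ± 0.852 and 14.2 ± 2.96 FPKM (adjusted p = 0.0771), and EEF2K, the kinase of elongation factor 2, at 5.77 ± 0.234 and 4.85 ± 0.258 FPKM (adjusted p = 0.149). The groups of TFE3, ATG13 and EEF2K did not overlap.

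Of 9 tested genes of AMPK and its activators 0 passed (median log2 fold change −0.02). PRKAA1, the catalytic α1 subunit, was at 6.43, 3.92 and 5.03 FPKM among controls and 8.39, 9.19 and 7.80 FPKM among knockouts. The knockouts were all higher, and the adjusted p was 0.0764, or 0.0327 without the first control, where 929 of 11162 names were called. The log2 fold change of PRKAA1 was 0.64, and 0.43 with the length and GC correction. PRKAB1, a regulatory subunit, was at 8.82 ± 0.461 and 10.9 ± 0.532 FPKM (adjusted p = 0.0840, or 0.0446 with that correction), and STK11, the upstream kinase LKB1, at 4.27 ± 0.0513 and 3.77 ± 0.0860 FPKM (adjusted p = 0.246). In the list of Tribbles partners 0 of 8 tested genes passed, and MAP2K4 and STK40 were at 6.05 ± 1.25 against 7.37 ± 0.291 and 14.0 ± 0.814 against 12.7 ± 0.969 FPKM (adjusted p = 0.274 and 0.346).

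Across the 6 libraries the single genes whose log2(FPKM + 1) followed TRIB2 most closely were PLCH1, a phospholipase C (1.05 ± 0.114 FPKM among controls and 1.49 ± 0.0307 among knockouts), RAP1GAP2, an activator of RAP1 GTP hydrolysis (1.54 ± 0.200 and 2.43 ± 0.0780), and TOX, a factor of T cell development (23.8 ± 1.91 and 34.2 ± 0.883). Pearson's r was 0.999, 0.998 and 0.998 among 9854 genes compared. Of those genes, 311 had an r above 0.95. With 6 libraries in 2 groups, any gene that differs between the groups as TRIB2 does will have a high r.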

How the data were processed

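Libraries were made from total RNA with an mRNA kit (SMARTER), per the labels' protocols, 3 of control cells and 3 of cells labelled FOXO3A knock-out. The deposited values are FPKM, per the file headers, and each library has its column. HTSeq, Bowtie 0.12.9 and Cufflinks 2.1.1 are listed without their roles, and the build is hg38, per the submitters' processing notes. 5 members stand in rows of assembled loci (SESN1, INSR, IGF1R, TRIB2, EIF4EBP1), whose values can include unannotated transcripts. No label gives the strand setting, and SESN1, SESN3, IRS2, IGF1R and RICTOR overlap genes on the other strand in GENCODE release 29 (GRCh38), which also gave coordinates, lengths and GC content.

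Of 56418 rows 4865 repeats with identical values were dropped, and rows of the same name were summed to 47102 names. Rows naming several genes (1527) were tested as loci and not counted for the lists. A value of 0.0001 was treated as a floor. FPKM times length in rows of 1 transcript lay within 0.1 of a whole step for 76.3% to 78.8% of low values (20% by chance), and the most frequent value, 282 steps in every library, was sought in a preset window and read as 1 read pair. Read pairs derived from it are estimates and cover counting error only. These steps are bases and give no whole reads, and count models were therefore not used.

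Names with a mean of at least 1 FPKM were tested two-sided by limma 3.58.1 (R 4.3.3), whose model of log2(FPKM + 1) held the group alone and let the prior variance follow the mean level. P-values were adjusted by Benjamini and Hochberg, at 0.05. A run on simulated data used independent normal noise for each name and library, so it could not show how differences shared across a library affect the calls. Alternatives covered the pseudocount, filter, scaling, variance trend, replicate block, row choice, a length and GC trend (natural splines, 4 degrees of freedom each) and each library left out. That trend without the second control was added after seeing the data. The members, lists and tests were chosen with earlier results of these data known. Named genes were FOXO3, all members, and in each other list the genes past the threshold, filled up to 3 by smallest p. MTOR, MLST8, EIF4EBP2, COP1, CEBPA, CEBPB, INS, IGF1 and IGFBP1 were named for their roles. They and the genes of the closing observations were chosen after their values were seen. Motif searches and plots used Python 3.11.15, pandas 2.3.3, scipy 1.17.1 and matplotlib 3.10.9.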

Additional observations from a re-analysis of the deposited data

How the results depend on the processing

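Of the values given for the members and FOXO3, SESN1 changed sign with the length and GC correction (log2 fold change −0.20, and −0.0608 when the second control was also left out) and without the first control, with a range of −0.0780 to 0.144 over single libraries left out. FOXO3 ranged from −0.12 to 0.000274, INSR from −0.23 to −0.04, SESN3 from −0.24 to −0.02, IRS1 from −0.17 to −0.05 and TRIB3 from −1.52 to −0.68. IDE changed sign after the trend removal (−0.16, and −0.18 without the second control) and with single libraries left out (−0.0422 to 0.409), and IGFBP6 likewise (0.0424, and −0.126 to 0.0183). The cause was not tested. TRIB2 missed the threshold with no filter (0.67) and ranged from 0.57 to 0.73 with single libraries left out. EIF4EBP1 passed at a mean of 5 FPKM (−0.48), with upper-quartile scaling (−0.53), quantile normalization (−0.49) and the trend removed (−0.37), and ranged from −0.57 to −0.43.

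The count of members past the threshold was 0 with no filter (0.763% of 25285 names were called there) and 2 with a mean of 5 FPKM, upper-quartile scaling, quantile normalization or the trend removed. With single libraries left out it was 0 to 2. The 2 came without the first control, where 929 of 11162 names were called, and the counts of 0 where 68 to 93 were called. The range thus moved with the calls over all names. At an unadjusted p below 0.05 the count of members was 2 of the 6 tested as reported. The other pathway genes past it numbered 2 higher with the trend removed, and 1 lower with no filter, 1 with a mean of 5 FPKM, 5 with upper-quartile scaling, 4 with quantile normalization, 5 with the trend removed and 4 with it removed and the second control left out. With single libraries left out they were 0 to 4 higher, the 4 without the first control, and 0 to 1 lower. Over all names the count of 299 became 193 with no filter, 542 with quantile normalization, 755 with the trend removed and 68 to 929 with single libraries left out. Upper-quartile scaling gave 170 higher and 259 lower names.

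Whether same-numbered libraries were paired is not stated in the labels. The correlations of their deviations from the group means were 0.0984, −0.0392 and 0.0162, with not every library closest to its own number. With the number as a block, 27 names were called, 0 members (TRIB2 at 0.67, adjusted p = 0.111) and 0 higher and 0 lower pathway genes. Of the members, TRIB1 rests on the fewest estimated read pairs.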

Other observations

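Several genes of the same pathways lay below the filter and had groups that did not overlap, as did 12.9% of names below it. SGK1, a kinase downstream of mTORC2 that phosphorylates FOXO3, was at 0.108, 0.0590 and 0.0785 FPKM among controls and 0.383, 0.373 and 0.330 FPKM among knockouts. With no filter its log2 fold change was 0.33 and its limma adjusted p 0.0286, beside 0.763% of names called in that fit. GRB10, an adaptor that binds the insulin receptor and is stabilized by mTORC1, was at 0.289 ± 0.0120 and 0.537 ± 0.0463 FPKM (adjusted p = 0.0938), and DEPTOR, an inhibitor of both mTOR complexes, at 0.498 ± 0.0243 and 0.226 ± 0.0983 FPKM (adjusted p = 0.126; SD, n = 3). These genes were picked after their values were seen.

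Of 76 tested protein-coding neighbours within 1 Mb of the 10 members 2 passed the test, or 2.63%, near the 2.68% of all names tested. They were 1 of 17 beside EIF4EBP1 and 1 of 24 beside INSR, and 0 beside each of the other members. FGFR1, a fibroblast growth factor receptor 340 kb from EIF4EBP1, had means of 1.80 ± 0.116 among controls and 0.521 ± 0.0564 FPKM among knockouts, and fell (limma log2 fold change −0.88 with adjusted p = 0.00685, which was at most 0.0415 with any 1 library left out). RETN, which encodes the hormone resistin and lies 375 kb from INSR, had means of 8.50 ± 0.831 among controls and 21.6 ± 3.09 FPKM among knockouts, and rose (limma log2 fold change 1.25 with adjusted p = 0.00807, which was at most 0.0434).

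IGF2R, the clearance receptor for IGF2, was at 18.9 ± 2.07 FPKM among controls and 12.8 ± 1.19 among knockouts (limma adjusted p = 0.0546). GRB14, a relative of GRB10, was listed at the floor in both of its rows in all 3 controls and the second knockout, and at 8.13 and 11.1 FPKM in the first and the third knockout. Only those knockouts brought GRB14 past the filter and among the 17 tested receptor-proximal genes. It did not pass the test (log2 fold change 2.26, limma adjusted p = 0.184). LARP1, a repressor of ribosomal protein mRNA translation, was at 9.45, 7.26 and 28.9 FPKM among controls and 29.3, 25.8 and 25.3 FPKM among knockouts, so that the third control lay with the knockouts. Its log2 fold change was 1.02 (limma adjusted p = 0.223).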
